A study of Arabidopsis thaliana with 12 samples.

Results

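The genes described here are core cell cycle regulators of Arabidopsis thaliana: cyclins of the B, A and D classes, the cyclin-dependent kinases (CDKs) CDKA-1 and CDKB1-1 to CDKB2-2, and the CDK inhibitors KRP1 to KRP7, SIM and SMR1. They came from a list of 41 loci named by gene family. Of these, 37 had a row among the 21200 genes of the count table, namely 8 B cyclins, 6 A cyclins, 9 D cyclins, 5 CDKs and 9 inhibitors. CYCB3-1, CYCA2-1, CYCA3-1 and CYCD6-1 were not analysed here. Names of cyclins and CDKs are written with a hyphen (CYCB1-1), the form used by UniProt, where the reference annotation has a semicolon. The RNA came from whole roots of wild-type (WT Col.) seedlings grown aseptically on vertical agar plates. At 4 days after planting the seedlings received 2 µL of 1 of 3 liquids: a suspension of the root-colonising bacterium Azospirillum brasilense wild-type strain 39 (Az39), a suspension of A. brasilense ipdc, a mutant in the gene for indole-3-pyruvate decarboxylase of bacterial auxin synthesis, or 0.9% saline, labelled NaCl, as the control. Both suspensions were in 0.9% saline at an optical density of 1 at 595 nm. Roots were frozen 24 h or 7 d after treatment, which gave 6 groups of 2 libraries, each from a pool of at least 50 root systems. The plants carried no transgene named in the labels, and the pooled replicates give no value for a single plant.

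Cyclins bind CDKs and set their activity and substrates. In plants D cyclins with CDKA-1 drive the passage from G1 into S phase, A cyclins act in S phase and towards mitosis, and B cyclins with CDKA-1 and the plant-specific CDKBs carry cells through G2 into mitosis, while the KRP and SIM-related proteins inhibit these complexes. In the root, dividing cells lie mainly in the meristem at the tip and in young lateral root primordia. CYCB1-1 is the usual marker of cells in G2 and mitosis there, KRP2 acts in lateral root initiation, and SIM is known from trichomes, where it promotes the switch from mitosis to endoreduplication.

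Sequencing gave 9665704 to 21541793 counts per library, and all 12 root markers of a fixed list had counts in every library. The ipdc libraries of 24 h stood apart from the other 10. Seed storage transcripts took 4.97% of the counts of replicate 1 and 0.284% of those of replicate 2, against 0.00158% to 0.124% elsewhere, and photosynthesis transcripts took 0.345% and 1.93%, against 0.0781% to 0.287%. All 26 photosynthesis genes lay above 0 in ipdc against saline at 24 h, at a median log2 fold change of 3.48. Of these, 4 were called higher, in the sense defined below, against 1.93% of all genes. The 37 cell cycle genes together took 0.0713% and 0.0949% of the counts of these libraries, against 0.0813% to 0.127% in the others. Of the 12 seed list genes 11 lay above 0 in ipdc against saline at 24 h (median 4.55), none called, and SESA4 lay below (-2.05 ± 1.72). CRB, SESA1, SESA3 and SESA4 were higher in replicate 2 of Az39 at 24 h than in either ipdc library of 24 h. Seed list genes were at 0 only in replicate 1 of Az39 at 24 h, where 3 were. The part of the seed and photosynthesis transcripts in the results below was not tested beyond the fits that leave a library out or carry the share as a covariate. As the samples are bulk RNA, fewer dividing cells and less RNA per dividing cell cannot be told apart.

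Levels per length set the genes in order within these roots. In CPM, counts scaled to a common library size, and per kilobase of exon, the medians over 12 libraries were 49.4 for CDKA-1, 49.4 for SIM, 41.3 for CDKB2-1, 34.1 for CYCB1-2 and 34.0 for CYCD3-2. The lowest median of a tested gene was 2.04, for CYCD4-2. CYCD7-1, a D cyclin known from guard cell formation, had 9 counts in all, every one in the Az39 libraries of 7 d, and was left out of the tests. Thus 36 of the 37 genes were tested.

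Mitotic genes of plants carry a short promoter element, the mitosis-specific activator, that MYB3R transcription factors bind. Its core AACGG was searched on both strands in the 250 bases before each gene's annotated start. It was present in 6 of 8 B cyclins, 1 of 6 A cyclins, 1 of 9 D cyclins, 1 of 5 CDKs and 4 of 9 inhibitors, which makes 13 of 37 genes (35.1%), against 21.1% of 21116 protein-coding genes. The longer word TCNAACGG, each match of which holds an AACGG, was present in 5 of 8 B cyclins and in CYCA1-1, or 6 of 37 genes, against 2.35% of all. A set of 4 words of the E2F site (TTTCCCGC, TTTCCCGG, TTTGGCGC and TTTGGCGG, both strands), which S phase genes carry, matched in CYCA3-4 and CYCD3-3, or 5.41%, against 1.81%. A match describes letters and is no evidence of binding. The windows below are shown because 4 of these genes fell between 24 h and 7 d in saline-treated roots, as given further on, and 1 of those 4, CYCB1-4, holds neither word, while CYCB1-2 holds the most copies of the longer one. CDKB1-2, which was also called lower there, is not shown and holds neither word either. CYCB2-1, CYCB2-2 and CYCB2-3 hold the longer word and, like CYCB1-2, were not called there. Any link of these words to the fall was not tested. Sequences are from the RefSeq assembly TAIR10.1, in 5′ to 3′ direction of the gene. Capitals mark AACGG or TCNAACGG, or their reverse complements, which begin with CCGTT.
CYCB1-1 (chr4:17624309-17624558, minus strand): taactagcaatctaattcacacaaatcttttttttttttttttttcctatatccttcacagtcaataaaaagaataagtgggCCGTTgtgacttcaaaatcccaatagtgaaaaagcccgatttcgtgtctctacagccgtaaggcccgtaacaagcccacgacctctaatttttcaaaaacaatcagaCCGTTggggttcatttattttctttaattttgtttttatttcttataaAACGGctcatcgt
CYCB1-2 (chr5:1861704-1861953, minus strand): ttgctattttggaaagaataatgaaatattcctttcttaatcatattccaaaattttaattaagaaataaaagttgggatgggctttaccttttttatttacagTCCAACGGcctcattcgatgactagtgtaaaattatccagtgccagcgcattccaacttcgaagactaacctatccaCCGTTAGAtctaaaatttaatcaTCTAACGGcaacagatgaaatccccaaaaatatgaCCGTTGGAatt
CYCB1-3 (chr3:3627274-3627523, minus strand): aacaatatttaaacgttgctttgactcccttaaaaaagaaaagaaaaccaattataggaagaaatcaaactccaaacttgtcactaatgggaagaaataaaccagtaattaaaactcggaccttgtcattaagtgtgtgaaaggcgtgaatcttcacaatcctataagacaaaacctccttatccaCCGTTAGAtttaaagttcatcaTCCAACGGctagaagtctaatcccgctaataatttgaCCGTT
CYCA1-1 (chr1:16777353-16777602, minus strand): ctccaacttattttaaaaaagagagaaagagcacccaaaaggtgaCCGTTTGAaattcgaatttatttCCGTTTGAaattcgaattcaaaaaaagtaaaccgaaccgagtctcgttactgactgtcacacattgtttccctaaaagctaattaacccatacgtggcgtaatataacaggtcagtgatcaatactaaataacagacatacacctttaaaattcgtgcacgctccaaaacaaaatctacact
CYCB1-4 (chr2:11400868-11401117, plus strand): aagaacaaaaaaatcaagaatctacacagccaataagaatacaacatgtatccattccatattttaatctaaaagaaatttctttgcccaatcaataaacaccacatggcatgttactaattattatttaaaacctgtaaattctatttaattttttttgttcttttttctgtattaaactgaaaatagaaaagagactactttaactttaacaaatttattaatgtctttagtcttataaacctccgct

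**Figure D1:**
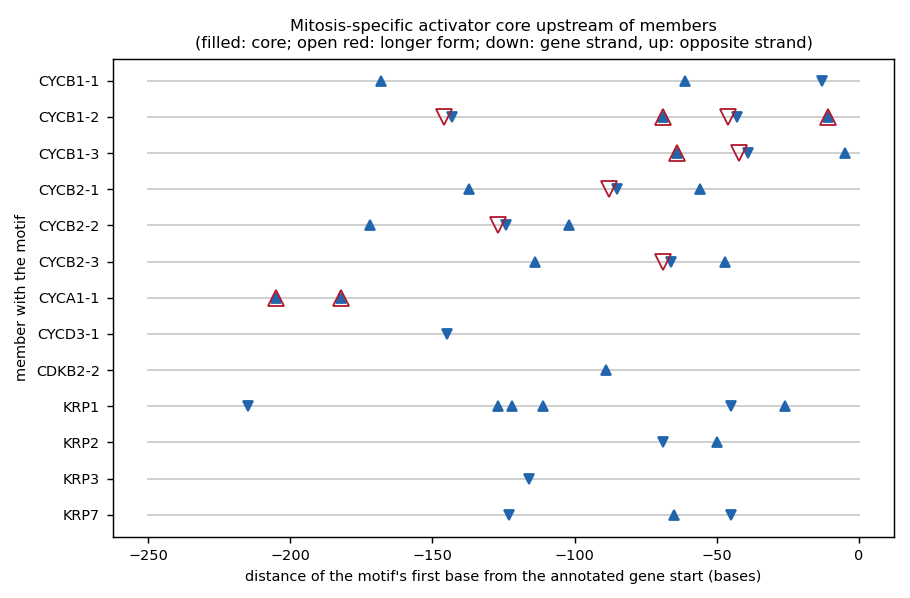
Positions of the activator words upstream of 13 cell cycle genes, in bases from the annotated start (x axis), with 1 row per gene. Filled points mark AACGG and open red points TCNAACGG, on either strand. CYCB1-2 holds 4 copies of the longer word, at -146, -69, -46 and -11.

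In CYCB1-2 the longer word lay at -146, -69, -46 and -11 from the start, and in CYCB1-3 at -64 and -42. CYCB1-1 held 3 copies of the core, at -168, -61 and -13, and none of the longer word. CYCA1-1 held the longer word at -205 and -182.

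Across the 6 groups, 23 of the 36 tested genes had their highest group mean in Az39 roots at 24 h and 17 had their lowest in saline roots at 7 d. These counts were not computed over all genes, so they cannot be read as particular to the cell cycle genes. The summed B cyclins, in CPM, at 24 h were 337 and 279 (saline), 360 and 357 (Az39) and 170 and 277 (ipdc). At 7 d the sums were 178 and 181 (saline), 295 and 184 (Az39) and 199 and 221 (ipdc). The CDKs summed to 233 and 196, 242 and 252, and 174 and 202 at 24 h, and to 172 and 173, 247 and 194, and 188 and 195 at 7 d, in the same order of groups. Summed inhibitors lay between 110 and 160 in all 12 libraries, and the 4 libraries of treated roots at 7 d (110 to 118) lay below the other 8. SIM, a part of this sum, was at 20.9 to 24.3 CPM in these 4 and at 34.6 to 62.0 in the other 8. The class did not fall as a whole. Of the 9 inhibitors 5 lay above 0 against saline at 7 d, both for Az39 (median log2 fold change 0.15) and for ipdc (0.29). Within groups, the libraries differed most in Az39 at 7 d and ipdc at 24 h, with median ratios over the 36 genes of 1.40 and 1.34 between the higher and lower library and highest ratios of 2.90 and 3.89, against medians of 1.13 to 1.26 in the other 4 groups. Replicate 1 was the higher in 29 of 36 genes in the former and in 10 in the latter.

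**Figure D2:**
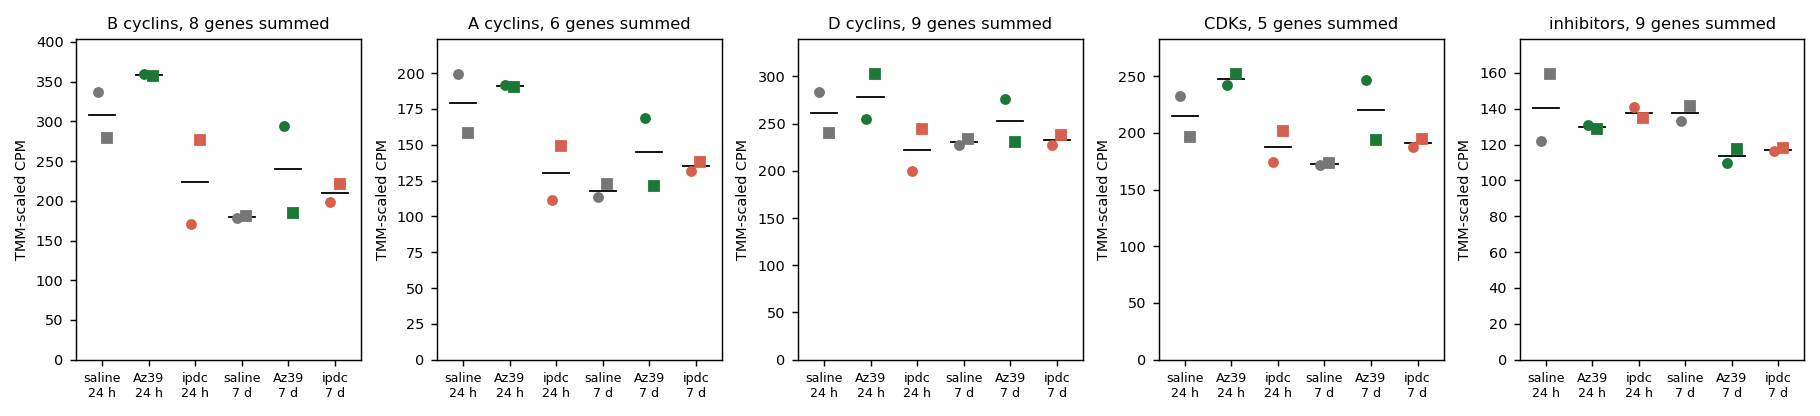
Summed CPM of the B cyclins, A cyclins, D cyclins, CDKs and inhibitors (y axes, from 0) in each library of the 6 groups, where circles are replicate 1, squares replicate 2 and lines the mean of both. B cyclin sums run from 170 to 360, with both Az39 libraries of 24 h at the top.

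A gene was called where its edgeR quasi-likelihood p, adjusted by Benjamini-Hochberg over all 18867 genes tested, was under 0.05. Fold changes are log2 values ± standard error (SE), n = 2 libraries a group, from 1 fit over all 12 libraries, and the p-values measure the spread between these pooled root samples. Comparisons within a time share libraries pairwise, so their values are given side by side and were not set against each other beyond the comparisons named.

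At 24 h no cell cycle gene was called between treatments. Of Az39 against saline, 27 of 36 log2 fold changes were above 0, with a median of 0.11, against a median of 0.00 over all genes. None was called by edgeR, DESeq2 or limma-voom, and 0% of all genes was called by edgeR. The median was 0.31 without replicate 1 and -0.05 without replicate 2 of saline at 24 h. At an unadjusted p under 0.05, edgeR gave 1 of 36, higher with Az39, against 0.673% of all genes in that direction. The libraries of both groups did not overlap in 7 genes, with Az39 above, against 13.6% of all genes, and in 2 with Az39 below, against 11.1%. Of ipdc against saline, 30 of 36 were below 0, with a median of -0.24, against 0.01 over all genes. None was called by edgeR, DESeq2 or limma-voom, against 2.11% of all genes by edgeR, and 3 had an unadjusted p under 0.05, all lower with ipdc, against 4.42% of all genes in that direction. The ipdc libraries lay below both saline libraries in 11 genes, against 18% of all genes, and above them in 2, against 21.7%. Without replicate 2 of ipdc, the library rich in photosynthesis transcripts, the median was -0.53 and 2 genes were called, against 6.86% of all genes, and without replicate 1, the library rich in seed transcripts, it was -0.18.

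Az39 against ipdc at 24 h gave 28 of 36 values above 0 and a median of 0.43, against -0.03 over all genes. EdgeR and limma-voom called none and DESeq2 called 3, CYCB1-3, CYCA2-3 and CYCA2-4, all higher with Az39, against 1.38% of all genes called higher and 7.39% in either direction by DESeq2. EdgeR called 0.0901% of all genes higher, 0.869% lower and 0.959% in either direction. At an unadjusted p under 0.05 edgeR gave 12 of 36, all higher with Az39, against 6.17% of all genes in that direction. Both Az39 libraries lay above both ipdc libraries in 21 genes, against 21.7% of all genes, and in none did they lie below, against 23.9%. Without replicate 2 of ipdc 4 genes were called, against 6.94% of all genes, and the median was 0.61. Without replicate 1 it was 0.27.

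At 7 d, Az39 against saline gave 28 of 36 values above 0, a median of 0.32 and 0.05 over all genes. SIM alone was called by edgeR, and was lower, against 1.34% of all genes called lower and 3.69% called in either direction. DESeq2 called 3 genes, 2 higher and 1 lower, against 6.26% of all genes called higher and 10.5% in either direction by DESeq2. Limma-voom called 1, which was lower, but its share of all genes called is not given here, so this count has no background beside it. Unadjusted p under 0.05 was reached by 7 genes with higher and 1 with lower values, against 24.3% of all genes. The Az39 libraries lay above both saline libraries in 16 genes, against 30.7%, and below in 4, against 26.4%. The median was 0.07 without replicate 1 of Az39 and 0.57 without replicate 2. For ipdc against saline at 7 d, 25 of 36 values were above 0, with a median of 0.24, against 0.04 over all genes. EdgeR and limma-voom called none and DESeq2 called SIM, which was lower, against 1.1% of all genes called lower and 2.05% in either direction by DESeq2. EdgeR called 0.0159% of all genes in either direction and 0.0053% lower. At an unadjusted p under 0.05 edgeR gave 3, against 10.5%. Without replicate 2 of ipdc the median was 0.12. The ipdc libraries lay above saline in 17 genes, against 28.6%, and below in 6, against 23.7%. Az39 against ipdc at 7 d gave a median of 0.09, against 0.01 over all genes, and 25 of 36 values above 0. None was called by edgeR, DESeq2 or limma-voom, against 0.117% of all genes by edgeR, and 3 had an unadjusted p under 0.05, all higher with Az39, against 5.75% of all genes in that direction. The median was -0.07 without replicate 1 and 0.31 without replicate 2 of Az39. In 8 genes the Az39 libraries lay above ipdc, against 22.5%, and in 4 below, against 20.3%.

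Markers of root zones were read beside these values, and edgeR and limma-voom called none of the meristem or differentiated root markers between treatments. The 4 meristem markers, PLT1 to PLT3 and WOX5, all lay above 0 in Az39 against saline (median 0.32) and Az39 against ipdc (0.58) at 24 h, and 3 lay below 0 in ipdc against saline (-0.25). At 7 d all 4 lay above 0 for Az39 (median 0.26) and 3 for ipdc (0.52) against saline. Of the 7 differentiated root markers 6 lay below 0 at 7 d both for Az39 (median -0.53) and for ipdc (-0.61) against saline, among them IRX5 (-0.53 ± 0.19 and -0.86 ± 0.19) and IRX3 (-0.18 ± 0.17 and -0.72 ± 0.17). DESeq2 called IRX3 and IRX5 lower in ipdc against saline. At 24 h 6 lay above 0 for Az39 (0.46) and all 7 for ipdc (0.13). At 7 d the meristem markers summed to 0.00730% and 0.00748% of counts (saline), 0.00946% and 0.00704% (Az39) and 0.0110% and 0.00983% (ipdc), and the differentiated ones to 0.0277% and 0.0258%, 0.0185% and 0.0166%, and 0.0162% and 0.0157%. No marker of either list was at 0 in a library. The part of these markers in the values of the cell cycle genes was not tested.

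**Figure D3:**
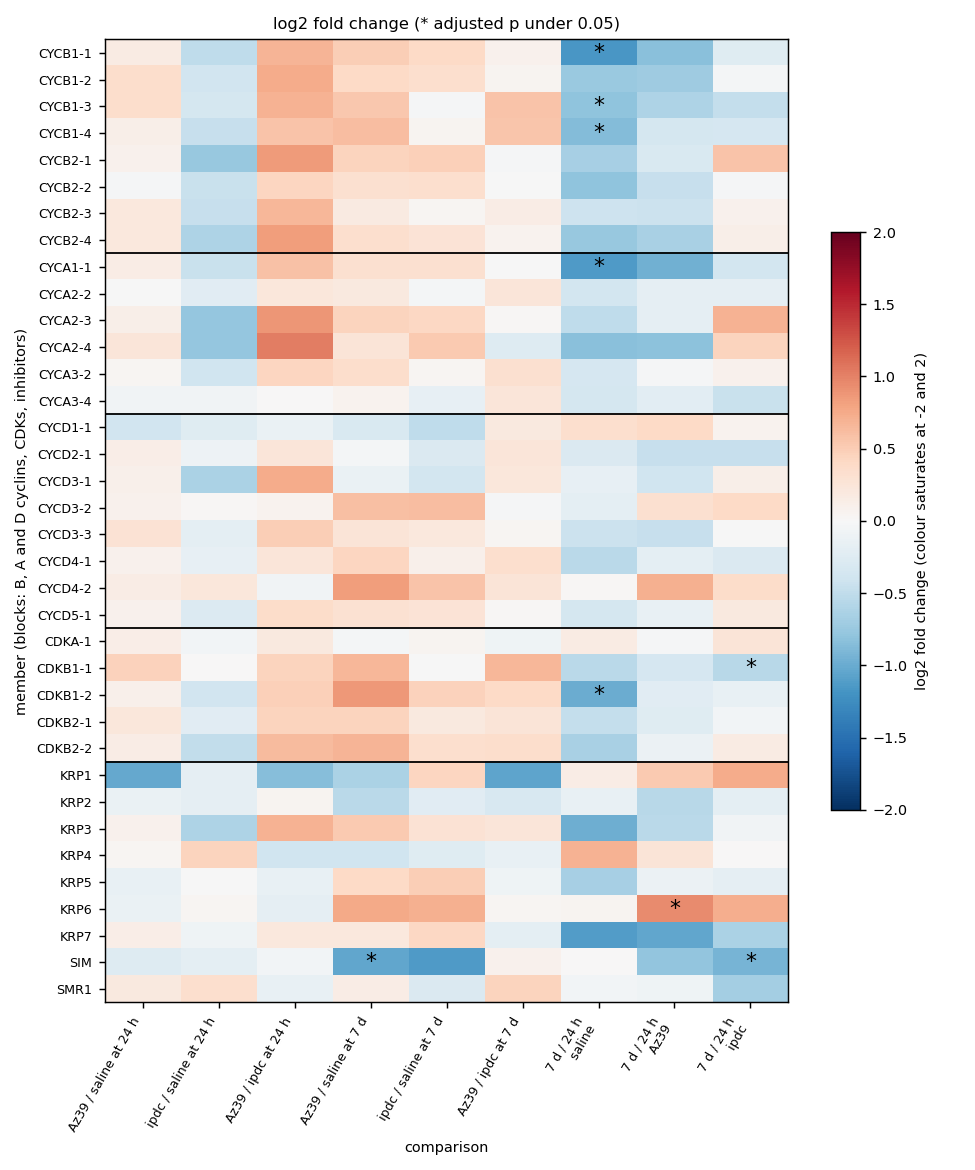
Log2 fold changes of the 36 tested genes (rows, by class) in 9 comparisons (columns), where red is higher and blue lower in the first group named, colours saturate at -2 and 2 and an asterisk marks a called gene. The asterisks fall on SIM in Az39 against saline at 7 d, and on 8 entries of the comparisons between times.

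B cyclins carry CDKs into mitosis. CYCB1-1 (AT4G37490), in CPM, was at 43.4 and 33.0 (saline), 41.4 and 44.4 (Az39) and 22.0 and 31.6 (ipdc) at 24 h. At 7 d it was at 18.5 and 15.7 (saline), 30.1 and 18.1 (Az39) and 23.0 and 22.3 (ipdc). Both ipdc libraries lay below saline at 24 h and above it at 7 d, and the Az39 libraries overlapped saline at both times. The log2 fold changes of CYCB1-1 against saline were 0.17 ± 0.26 for Az39 and -0.51 ± 0.26 for ipdc at 24 h, and 0.50 ± 0.26 and 0.40 ± 0.26 at 7 d, and none was called. Az39 against ipdc gave 0.68 ± 0.26 at 24 h and 0.09 ± 0.26 at 7 d.

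CYCB1-3 (AT3G11520) was at 43.2 and 43.4 CPM (saline), 55.9 and 54.4 (Az39) and 31.6 and 36.2 (ipdc) at 24 h. At 7 d it was at 24.5 and 25.0, 43.7 and 28.4, and 24.7 and 24.0. At both times both Az39 libraries lay above every saline and ipdc library of that time, which held for CYCB1-3 and CDKB1-1 among the 36 genes, or 2 of 36, against 1.2% of all genes. The log2 fold change of CYCB1-3 for Az39 against saline was 0.35 ± 0.19 at 24 h and 0.54 ± 0.19 at 7 d. Against ipdc it was 0.70 ± 0.19 at 24 h, with an adjusted p of 0.0934, and 0.57 ± 0.19 at 7 d, with an adjusted p of 0.454. CYCB1-3 for ipdc against saline gave -0.35 ± 0.19 at 24 h and -0.03 ± 0.19 at 7 d.

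CYCB1-4 (AT2G26760) was at 43.9 and 37.3 CPM (saline), 43.0 and 44.6 (Az39) and 22.6 and 36.3 (ipdc) at 24 h, and at 21.4 and 23.3, 40.4 and 28.1, and 21.8 and 24.7 at 7 d. Its Az39 libraries of 7 d lay above both other groups, at a log2 fold change of 0.62 ± 0.24 against saline and 0.56 ± 0.24 against ipdc, with adjusted p of 0.157 and 0.534. CYCB2-1 (AT2G17620) was at 16.9 and 13.1, 14.6 and 17.1, and 7.57 and 10.1 CPM at 24 h, and at 9.87 and 9.15, 16.16 and 9.67, and 12.3 and 14.1 at 7 d. Its ipdc libraries were the lowest pair at 24 h and lay above saline at 7 d. The log2 fold changes of CYCB2-1 were -0.76 ± 0.27 for ipdc against saline at 24 h, with an adjusted p of 0.182, and 0.85 ± 0.28 for Az39 against ipdc. At 7 d they were 0.47 ± 0.27 for ipdc against saline and -0.03 ± 0.27 for Az39 against ipdc.

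All 8 B cyclins lay below 0 in ipdc against saline and above 0 in Az39 against ipdc at 24 h, and all 8 lay above 0 in Az39 against saline at 7 d, none called. Class extremes at 24 h were CYCB1-2 (0.36 ± 0.33) and CYCB2-2 (-0.02 ± 0.27) for Az39 against saline, CYCB2-1 and CYCB1-3 for ipdc against saline, and CYCB2-1 and CYCB2-2 (0.43 ± 0.27) for Az39 against ipdc. At 7 d CYCB2-3 had the lowest value for Az39 against saline (0.19 ± 0.27). Over the 12 libraries CYCB1-2 ranged from 36.6 to 101 CPM, CYCB2-2 from 17.2 to 36.1, CYCB2-3 from 18.6 to 39.3 and CYCB2-4 from 13.0 to 39.5.

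A cyclins of the A2 group act with CDKB1 to hold cells in the mitotic cycle rather than endoreduplication. CYCA2-3 (AT1G15570) was at 31.1 and 21.7 CPM (saline), 32.2 and 24.8 (Az39) and 13.2 and 17.5 (ipdc) at 24 h. At 7 d CYCA2-3 was at 18.7 and 18.4, 27.7 and 22.5, and 23.2 and 26.4. The ipdc libraries were thus the lowest pair at 24 h, while at 7 d both treated groups lay above both saline libraries. The log2 fold change of CYCA2-3 for ipdc against saline at 24 h was -0.78 ± 0.23, the smallest p of the 36 genes in that comparison, with an adjusted p of 0.112. Az39 against ipdc gave 0.89 ± 0.24 at 24 h, with an adjusted p of 0.0857. At 7 d CYCA2-3 stood at 0.44 ± 0.23 for Az39 and 0.42 ± 0.23 for ipdc against saline. CYCA2-3 overlaps the opposite-strand auxin response gene IAA5, which ran from 0.0646 to 2.50 CPM. The kit as named does not mark strand, so reads from the stretch where such genes overlap cannot be told apart.

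CYCA2-4 (AT1G80370) was at 33.3 and 26.4 CPM (saline), 32.1 and 38.4 (Az39) and 14.9 and 20.0 (ipdc) at 24 h, and at 19.4 and 13.9, 24.7 and 15.0, and 26.5 and 21.2 at 7 d. As for CYCA2-3, both ipdc libraries lay below saline at 24 h and above it at 7 d. The log2 fold change of CYCA2-4 was -0.78 ± 0.28 for ipdc against saline and 1.02 ± 0.28 for Az39 against ipdc at 24 h, with adjusted p of 0.193 and 0.0952. At 7 d the CYCA2-4 values were 0.52 ± 0.28 for ipdc against saline and -0.26 ± 0.28 for Az39 against ipdc. For Az39 against saline at 24 h CYCA2-4 was the class's highest (0.24 ± 0.28). CYCA3-4 was the lowest or nearest to 0 in each treatment comparison at 24 h (-0.06 ± 0.20, -0.07 ± 0.20 and 0.01 ± 0.20), with 0.07 ± 0.20 and -0.17 ± 0.20 for Az39 and ipdc against saline at 7 d. For Az39 against ipdc at 7 d the highest A cyclin was CYCA3-2 (0.32 ± 0.22). CYCA2-2 ranged from 6.06 to 11.1 CPM, CYCA3-2 from 32.6 to 57.1, CYCA3-4 from 13.4 to 25.0 and CYCA1-1 from 17.3 to 49.5.

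D cyclins link growth signals to cell cycle entry. CYCD3-1 (AT4G34160), which responds to cytokinin, was at 76.9 and 56.6 CPM (saline), 63.7 and 79.8 (Az39) and 27.6 and 58.3 (ipdc) at 24 h. At 7 d CYCD3-1 was at 65.0 and 54.5, 56.4 and 52.1, and 39.9 and 52.9. Replicate 1 of ipdc was the lowest library of 24 h, while replicate 2 lay between the saline libraries. Its log2 fold changes against saline were 0.11 ± 0.31 for Az39 and -0.64 ± 0.32 for ipdc at 24 h, and -0.14 ± 0.31 and -0.37 ± 0.32 at 7 d, with 0.74 ± 0.32 and 0.23 ± 0.32 for Az39 against ipdc. With the photosynthesis share as a covariate CYCD3-1 was called at 24 h, at -1.68 for ipdc against saline and 1.61 for Az39 against ipdc. The same-strand gene AT4G34150, which overlaps CYCD3-1, ran from 24.2 to 293 CPM.

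CYCD3-2 (AT5G67260), which acts with CYCD3-1 in cell proliferation in leaves, was at 58.3 and 43.6 CPM (saline), 45.5 and 62.9 (Az39) and 47.5 and 56.2 (ipdc) at 24 h. At 7 d it was at 42.2 and 46.9, 75.7 and 59.4, and 68.3 and 68.6, so that all 4 libraries of treated roots lay above both saline libraries. CYCD3-2 at 7 d gave 0.60 ± 0.21 for Az39 and 0.62 ± 0.21 for ipdc against saline, with adjusted p of 0.130 and 0.344, and -0.02 ± 0.21 between the strains. At 24 h the highest D cyclins were CYCD3-3 for Az39 against saline (0.29 ± 0.20) and CYCD4-2 for ipdc against saline (0.23 ± 0.42). CYCD1-1 was the lowest for Az39 at 24 h (-0.38 ± 0.26 against saline and -0.13 ± 0.26 against ipdc) and at 7 d for both strains against saline (-0.30 ± 0.26 and -0.50 ± 0.26). CYCD4-2 had the highest value for Az39 against saline at 7 d (0.83 ± 0.41), at 1.97 to 5.37 CPM over the 12 libraries, and CYCD4-1 the highest for Az39 against ipdc (0.33 ± 0.24). CYCD1-1 ranged from 17.4 to 37.8 CPM, CYCD2-1 from 29.6 to 52.4, CYCD3-3 from 27.0 to 57.3, CYCD4-1 from 5.89 to 11.9 and CYCD5-1 from 11.21 to 19.96.

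**Figure D4:**
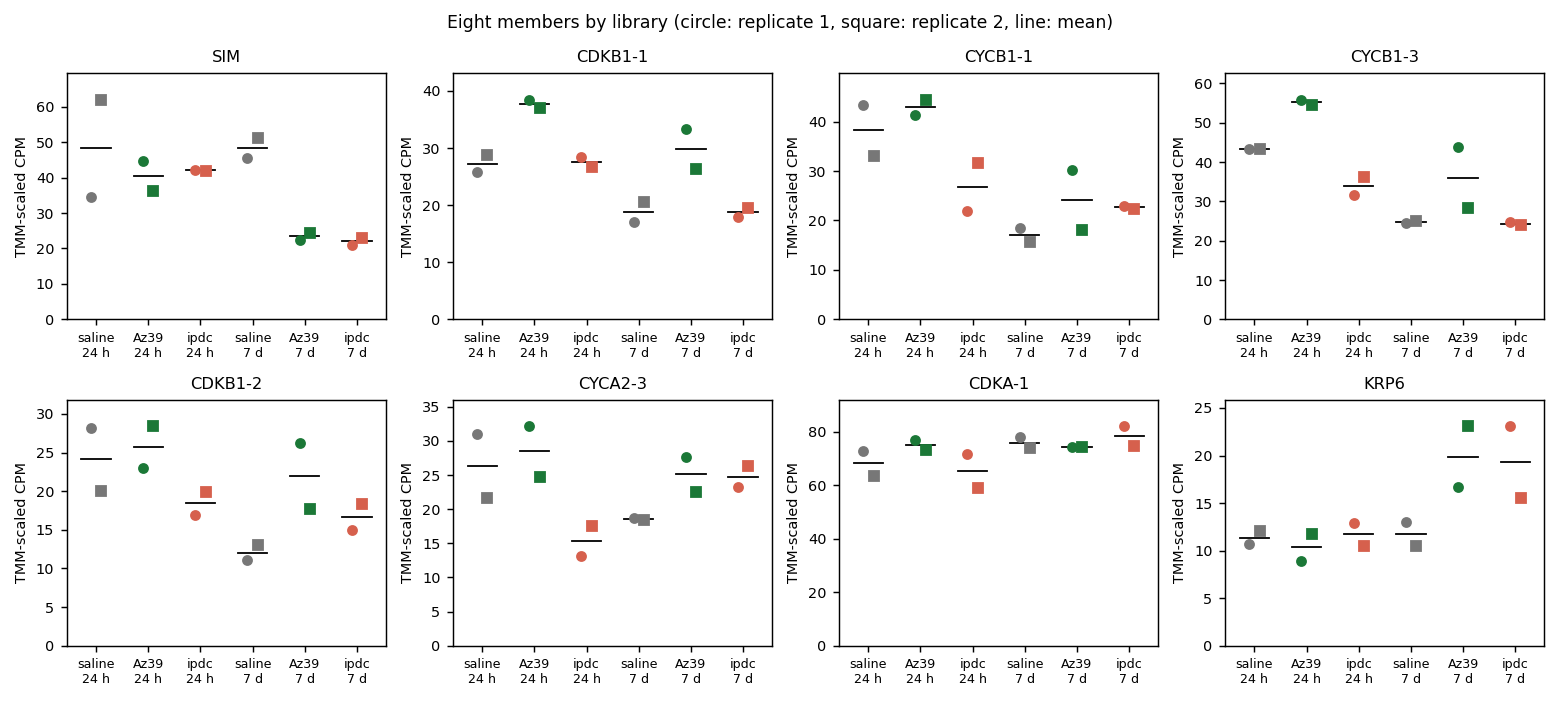
CPM (y axes) of SIM, CDKB1-1, CYCB1-1, CYCB1-3, CDKB1-2, CYCA2-3, CDKA-1 and KRP6 in each library of the 6 groups, with circles for replicate 1, squares for replicate 2 and lines for the mean. SIM is at 20.9 to 24.3 in the 4 treated libraries of 7 d and at 34.6 to 62.0 in the other 8.

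CDKA-1 (AT3G48750), the main kinase of the plant cycle, varied least. It was at 72.9 and 63.3 CPM (saline), 77.0 and 73.2 (Az39) and 71.8 and 59.1 (ipdc) at 24 h, and at 78.0 and 73.9, 74.1 and 74.1, and 82.2 and 74.7 at 7 d. The highest group mean of CDKA-1 was 1.20 times the lowest. Its log2 fold changes against saline were 0.14 ± 0.15 and -0.06 ± 0.15 at 24 h and -0.03 ± 0.15 and 0.05 ± 0.15 at 7 d, for Az39 and ipdc in turn, and 0.20 ± 0.15 and -0.08 ± 0.15 for Az39 against ipdc.

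CDKB1-1 (AT3G54180), a kinase of G2 and mitosis, was at 25.8 and 28.8 CPM (saline), 38.5 and 37.0 (Az39) and 28.5 and 26.6 (ipdc) at 24 h. At 7 d CDKB1-1 was at 17.0 and 20.5 (saline), 33.3 and 26.3 (Az39) and 18.0 and 19.5 (ipdc). All 4 Az39 libraries lay above the other libraries of their time, and the saline and ipdc libraries overlapped at both times. The log2 fold change of Az39 against saline was 0.47 ± 0.17 at 24 h, with an adjusted p of 1 in edgeR's fit, and 0.67 ± 0.17 at 7 d, with an adjusted p of 0.0605. DESeq2 called the latter, at 0.65 with an adjusted p of 0.0223, where the adjusted p of CDKB1-1 over the alternatives ran from there to 0.293. Against ipdc, CDKB1-1 stood at 0.45 ± 0.17 at 24 h and 0.67 ± 0.17 at 7 d, with adjusted p of 0.195 and 0.298. The ipdc against saline values were 0.01 ± 0.17 and -0.00 ± 0.17. The opposite-strand gene AT3G54190, which overlaps CDKB1-1, was at 72.7 to 98.4 CPM.

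CDKB1-2 (AT2G38620), the close paralog of CDKB1-1, was at 28.2 and 20.0 CPM (saline), 22.9 and 28.4 (Az39) and 16.9 and 19.9 (ipdc) at 24 h. At 7 d it was at 11.1 and 13.0, 26.2 and 17.7, and 14.9 and 18.4. At 7 d both saline libraries were the lowest, and ipdc lay below saline at 24 h and above it at 7 d. CDKB1-2 for Az39 against saline gave 0.10 ± 0.25 at 24 h and 0.86 ± 0.25 at 7 d, with an adjusted p of 0.0808 for the latter. For ipdc against saline CDKB1-2 gave -0.39 ± 0.25 at 24 h and 0.46 ± 0.25 at 7 d. CDKB2-2 had the lowest CDK value for ipdc against saline at 24 h (-0.49 ± 0.29) and the highest for Az39 against ipdc (0.64 ± 0.30). CDKB2-1 ranged from 40.9 to 75.7 CPM and CDKB2-2 from 16.0 to 39.7. No source used here says how the authors counted reads shared by the paralogs, so the split between CDKB1-1 and CDKB1-2 is uncertain.

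Among the inhibitors SIM (AT5G04470) was lower with Az39 than with saline at 7 d. It was at 34.6 and 62.0 CPM (saline), 44.7 and 36.2 (Az39) and 42.1 and 42.0 (ipdc) at 24 h, and at 45.4 and 51.2 (saline), 22.5 and 24.3 (Az39) and 20.9 and 23.1 (ipdc) at 7 d. The groups overlapped at 24 h, and at 7 d all 4 treated libraries lay below every other library of the study. SIM for Az39 against saline at 7 d gave -1.05 ± 0.25, with an adjusted p of 0.0491 in edgeR's fit, lower in 2 of 2 libraries. For ipdc against saline at 7 d it gave -1.14 ± 0.25, with an adjusted p of 0.170 in a comparison where few genes were called. At 24 h SIM gave -0.26 ± 0.24 for Az39 and -0.20 ± 0.24 for ipdc against saline. Between the strains SIM differed by -0.06 ± 0.25 at 24 h and 0.09 ± 0.25 at 7 d. The call for Az39 lies at the threshold: over the alternatives the log2 fold change stayed between -1.13 and -0.96 and the adjusted p ran from 0.00279 to 0.219. It was lost without either saline library of 7 d (-1.13 and -0.96), either Az39 library of 7 d (-0.99 and -1.10), either Az39 library of 24 h (-1.05 for both) or either ipdc library of 7 d (-1.05 for both). Without replicate 2 of Az39 at 7 d CYCB1-3 was called in its place (0.82, adjusted p 0.0444). SIM overlaps the opposite-strand gene AT5G04475, which was not analysed here.

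KRP6 (AT3G19150), of the KRP family of CDK inhibitors, was at 10.6 and 12.1 CPM (saline), 8.95 and 11.7 (Az39) and 12.9 and 10.5 (ipdc) at 24 h. At 7 d it was at 13.0 and 10.5, 16.7 and 23.1, and 23.1 and 15.5, with all 4 treated libraries above saline. KRP6 at 7 d gave 0.76 ± 0.26 for Az39 and 0.71 ± 0.26 for ipdc against saline, with adjusted p of 0.121 and 0.375, so that the highest and the lowest inhibitor of the 7 d comparisons with saline were KRP6 and SIM. KRP2 (AT3G50630) was at 11.5 and 18.9, 13.99 and 13.68, and 11.7 and 15.0 CPM at 24 h and at 12.1 and 15.3, 10.1 and 8.74, and 10.5 and 12.9 at 7 d. Its Az39 libraries of 7 d were the lowest pair. KRP2 gave -0.14 ± 0.26 and -0.18 ± 0.26 against saline at 24 h and -0.54 ± 0.26 and -0.23 ± 0.26 at 7 d, for Az39 and ipdc in turn, with 0.05 ± 0.27 and -0.31 ± 0.27 between strains.

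KRP1 (AT2G23430) was at 4.42 and 8.12, 2.68 and 3.47, and 2.27 and 8.84 CPM at 24 h, and at 9.14 and 4.72, 2.95 and 5.99, and 8.78 and 9.80 at 7 d. Its replicates differed by up to 3.89 times, the highest ratio of the 36 in the ipdc group of 24 h. KRP1 was the lowest inhibitor for Az39 at 24 h, at -1.02 ± 0.61 against saline and -0.85 ± 0.63 against ipdc, and at 7 d against ipdc, at -1.06 ± 0.60. The highest at 24 h were SMR1 for Az39 against saline (0.19 ± 0.36), KRP4 for ipdc against saline (0.44 ± 0.25) and KRP3 for Az39 against ipdc (0.70 ± 0.31), while KRP3 was the lowest for ipdc against saline (-0.61 ± 0.30). SMR1 was the highest for Az39 against ipdc at 7 d (0.44 ± 0.36). KRP3 ranged from 5.41 to 13.8 CPM, KRP4 from 14.7 to 29.8, KRP5 from 6.04 to 11.9, KRP7 from 1.81 to 8.98 and SMR1 from 8.85 to 22.5.

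Between 24 h and 7 d, 3 B1 cyclins, CYCA1-1 and CDKB1-2 fell in saline-treated roots. There, 29 of 36 log2 fold changes were below 0, with a median of -0.45 against 0.01 over all genes, and 5 genes were called, all lower, against 8.6% of all genes called lower, 8.02% called higher and 16.6% in either direction. The 5 were CYCB1-1 (-1.16 ± 0.26, adjusted p 0.0216), CYCB1-3 (-0.80 ± 0.19, 0.0250), CDKB1-2 (-0.999 ± 0.25, 0.0287), CYCB1-4 (-0.86 ± 0.24, 0.0395) and CYCA1-1 (-1.13 ± 0.33, 0.0461), the last a cyclin at 46.8 and 36.5 CPM at 24 h and 18.2 and 19.9 at 7 d. In all 5 both libraries of 7 d lay below both of 24 h, as in 23 of 36 genes, against 33.7% of all genes, while 3 genes lay wholly above, against 33.9%. At an unadjusted p under 0.05 edgeR gave 15 of 36, against 33.7% of all genes. The 5 calls did not hold without replicate 1 of saline at 24 h or without either saline library of 7 d. Some were also lost without replicate 2 of saline at 24 h, either Az39 library of 24 h or either ipdc library of 7 d. The numbers of calls in the fits that leave 1 library out are given at the end, beside the share of all genes called. All 4 tested meristem markers lay below 0, with none called by edgeR, DESeq2 or limma-voom and 1 at an unadjusted p under 0.05, PLT2 (-0.59 ± 0.26), and all 7 markers of differentiated root lay above 0, with IRX5 (1.67 ± 0.19), IRX3 (1.25 ± 0.17) and IRX1 (1.83 ± 0.37), cellulose synthases of secondary walls, called. Summed, the meristem markers took 0.0117% and 0.00788% of counts at 24 h and 0.00730% and 0.00748% at 7 d, the differentiated ones 0.0103% and 0.0139%, then 0.0277% and 0.0258%, and none was at 0 in a saline library. The part of these markers in the 5 calls was not tested.

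With Az39, 30 of 36 values were below 0 from 24 h to 7 d, at a median of -0.27, and 1 gene was called, KRP6, which rose (0.94 ± 0.27, adjusted p 0.0437), against 9.71% of all genes called higher, 4.23% called lower and 13.9% in either direction. Unadjusted p under 0.05 was reached by 8 genes, against 30.8%, both libraries of 7 d lay below both of 24 h in 19, against 30.2%, and above in 3, against 30%. Without replicate 1 of Az39 at 7 d the median was -0.51. The KRP6 call was lost without either Az39 library of 24 h, replicate 2 of Az39 at 7 d or either saline library of 7 d, and also without either saline library of 24 h. With Az39 all 4 meristem markers lay below 0 (median -0.62), 4 of 7 differentiated root markers lay above 0 (median 0.53), with none of either list called, and of 12 root markers SCR (-1.18 ± 0.19) and SHR (-0.67 ± 0.19), factors that pattern the ground tissue, fell. Their part in the values was not tested. With ipdc, 20 of 36 values were below 0, at a median of -0.03, and 2 genes were called, both lower, against 10.5% of all genes called lower, 9.6% called higher and 20.1% in either direction. Unadjusted p under 0.05 was reached by 5 genes, against 36.2%, both libraries of 7 d lay below both of 24 h in 8, against 32.3%, and above in 6, against 30.2%. The 2 called genes were SIM (-0.94 ± 0.25, adjusted p 0.0291) and CDKB1-1 (-0.56 ± 0.17, 0.0483). Both calls were lost without any 1 of the 4 ipdc libraries, and CYCD2-1 was at -0.75 without replicate 2 of 24 h. The call of CDKB1-1 was also lost without any 1 of the saline libraries or of the Az39 libraries of 24 h, at -0.56 to -0.53. Without either Az39 library of 7 d CYCB1-3 was called as well (-0.48), and without replicate 2 of saline at 24 h CYCA2-3 was called higher (0.72). The median was -0.26 without replicate 1 and 0.24 without replicate 2 of ipdc at 24 h.

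**Figure D5:**
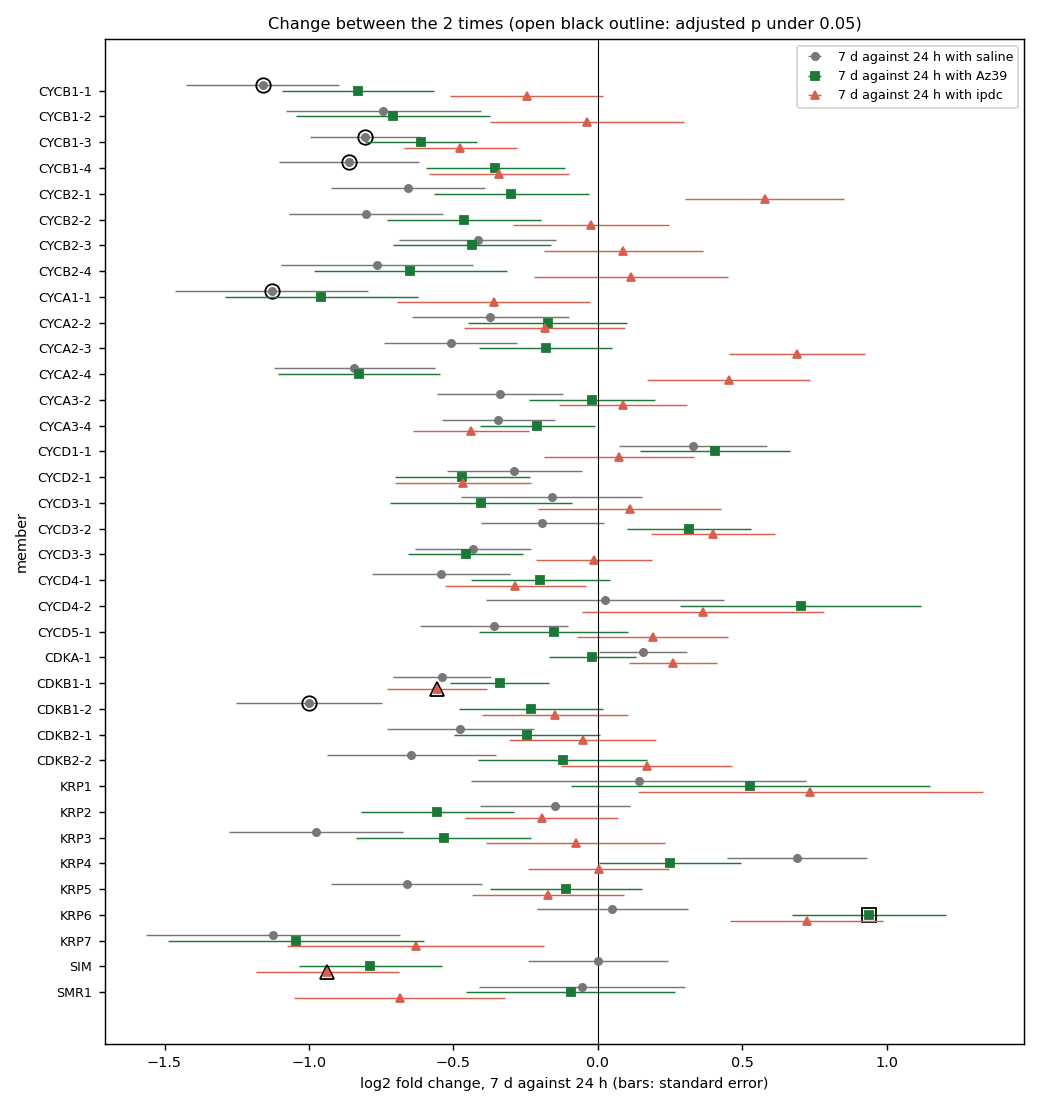
Log2 fold changes of 7 d against 24 h with their SE for the 36 genes in saline, Az39 and ipdc roots, with called genes outlined in black. In saline roots 29 of the 36 lie below 0, in Az39 roots 30 and in ipdc roots 20.

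Whether these changes over time differed between treatments was tested directly, and no cell cycle gene was called. For Az39 minus saline none was called by edgeR, DESeq2 or limma-voom, against 0.0424% of all genes by edgeR, and 2 of 36 had an unadjusted p under 0.05, against 11.8%. They were KRP6 (0.89 ± 0.37) and SIM (-0.79 ± 0.35), followed by CDKB1-2 (0.77 ± 0.35). For ipdc minus saline none was called by the 3 tools, against 0.106% by edgeR, and 6 had an unadjusted p under 0.05, against 13.9%. The smallest p belonged to CYCA2-3 (1.20 ± 0.33, adjusted p 0.164), CYCA2-4 (1.30 ± 0.40) and CYCB2-1 (1.24 ± 0.38). These 3 are among the 6 genes, with CYCB1-1, CYCD3-3 and CDKB1-2, whose ipdc libraries lay below saline at 24 h and above it at 7 d, against 5.2% of all genes. For Az39 minus ipdc none was called by the 3 tools, against 0.0106% by edgeR, and 3 had an unadjusted p under 0.05, all below 0, against 3.95% of all genes in that direction, namely CYCA2-4 (-1.28 ± 0.40, adjusted p 0.268), CYCA2-3 (-0.87 ± 0.33) and CYCB2-1 (-0.88 ± 0.38).

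Other cell cycle genes were read out as lists, 20 genes of DNA replication, 22 regulators, 26 of mitosis and the anaphase-promoting complex, and the SIAMESE-RELATED genes SMR4 and SMR7. SMR4 and SMR7 came from a list of 12 loci, 10 of them with a row, and the others were not read out. In the 6 treatment comparisons edgeR and limma-voom called none of the genes read out. DESeq2 called 1, 1 and 3 genes of the first 3 lists in Az39 against ipdc at 24 h (RNR1, MYB3R4, and MAP65-3, EDE1 and PAKRP1) and as many in Az39 against saline at 7 d (PCNA2, CKS2, and MAD2, CENH3 and PANS1), all higher with Az39, and none elsewhere. DESeq2 called 1.38% of all genes higher and 7.39% in either direction in the former comparison, and 6.26% and 10.5% in the latter. At an unadjusted p under 0.05 edgeR gave at most 7 of 20 replication genes (Az39 against ipdc at 24 h), 6 of 22 regulators and 11 of 26 mitosis genes (Az39 against saline at 7 d), all higher with Az39, against 6.17% and 14.5% of all genes in that direction in these comparisons. All 20 replication genes lay above 0 in Az39 against saline at 24 h (median 0.19) and in Az39 against ipdc (0.48), 19 lay below 0 in ipdc against saline (-0.36), and at 7 d 19 lay above 0 with Az39 (0.36) and 18 with ipdc (0.18) against saline. Medians of the mitosis list were 0.13, 0.54 and -0.45 for Az39 against saline, Az39 against ipdc and ipdc against saline at 24 h, and 0.56 and 0.36 for Az39 and ipdc against saline at 7 d. The smallest p of the replication list belonged to PCNA2, a DNA polymerase clamp, for Az39 against saline (0.29 ± 0.17 at 24 h and 0.60 ± 0.17 at 7 d, adjusted p 0.0735 for the latter) and for ipdc at 7 d (0.32 ± 0.17). At 24 h it belonged to RNR1, a ribonucleotide reductase subunit, for ipdc against saline (-0.42 ± 0.17) and Az39 against ipdc (0.63 ± 0.17), and at 7 d to ORC2 of the origin recognition complex for Az39 against ipdc (0.85 ± 0.24).

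Of the regulators, MYB3R1 (-0.57 ± 0.18) had the smallest p for ipdc against saline and MYB3R4, an activator of mitotic genes, for Az39 against ipdc at 24 h (0.98 ± 0.27, adjusted p 0.0952). For Az39 against saline CDKD-2, a CDK-activating kinase, had the smallest p at 24 h (0.18 ± 0.16) and DEL2, an atypical E2F factor, at 7 d (0.81 ± 0.22, adjusted p 0.0665). DEL2 (0.47 ± 0.22) and CKS2, a CDK-binding subunit (0.47 ± 0.20), had it for ipdc against saline and Az39 against ipdc at 7 d. In the mitosis list the smallest p belonged to EDE1, a microtubule-binding protein, for Az39 against saline at 24 h (0.43 ± 0.28), and to PAKRP1, a phragmoplast kinesin, for ipdc against saline (-0.73 ± 0.22) and Az39 against ipdc (0.88 ± 0.22, adjusted p 0.0769). At 7 d it belonged to CENH3, the centromeric histone, for Az39 against saline (0.78 ± 0.21, adjusted p 0.0670) and against ipdc (0.42 ± 0.21), and to PAKRP1 for ipdc against saline (0.72 ± 0.22). Of the remaining pair, SMR7 had the smaller p for Az39 at 24 h (0.36 ± 0.60 against saline and 0.53 ± 0.63 against ipdc) and SMR4 elsewhere (0.37 ± 0.51 for ipdc against saline at 24 h, then 1.06 ± 0.50, 0.70 ± 0.50 and 0.36 ± 0.49 for the comparisons of 7 d).

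In saline roots from 24 h to 7 d, 11 of 20 replication genes fell, against 8.6% of all genes called lower, among them PCNA1 (-1.41 ± 0.22), ORC2 (-1.15 ± 0.24) and PCNA2 (-0.79 ± 0.17), and none rose. So did 9 of 22 regulators, among them the kinase WEE1 (-1.20 ± 0.26), and 10 of 26 mitosis genes, among them CENH3 (-1.12 ± 0.21), the Aurora kinase AUR2 (-0.92 ± 0.17) and PAKRP1 (-0.99 ± 0.22). With Az39 5 replication genes and 1 mitosis gene were called lower, against 4.23% of all genes. No regulator was called with Az39, where 19 of 22 lay below 0 (median -0.30) and 7 had an unadjusted p under 0.05, and 23 of 26 mitosis genes lay below 0 (median -0.45). With ipdc 2 replication genes and 1 mitosis gene were called lower, against 10.5% of all genes, and no regulator was called, with 12 of 22 below 0. These counts were not tested against each other.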

How the data were processed

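RNA of 12 libraries of whole Arabidopsis roots was sequenced as 150 bp single-end reads. The deposited table holds raw read counts, for which the submitters' processing notes name HISAT2 2.2.1, featureCounts and TAIR10, with no counting settings, and the kit named in the labels does not mark strand. Groups follow the sample titles, and the labels call the 2 libraries of a group biological replicates. EdgeR 4.0.16 (R 4.3.3) fitted group means to all 12 libraries after TMM scaling and its expression filter (minimum count 10, total 15, proportion 0.7), with 6 residual degrees of freedom, a biological coefficient of variation of 24.5% and Benjamini-Hochberg adjustment over 18867 genes. Depth was 9665704 to 21541793 counts. CPM are TMM-scaled, except marker shares, which are of all counts. Fold changes between treatments were given for called genes, for CYCB1-1, CYCD3-1, CDKA-1, CDKB1-1, KRP2 and SIM, and for the highest and lowest gene of each class, and between times for called genes or the 3 smallest p. Values per library were given for genes called between treatments, those 6 and the 3 smallest p of each treatment comparison, and for CYCA1-1, a gene called between times, in 1 contrast. From each other list up to 3 called genes, or the smallest p, were named. Members and lists were chosen with earlier results of these data known. Scripts were tested on simulated data. Alternatives were DESeq2 1.42.0, limma-voom (limma 3.58.1), RLE scaling, other filters, library sets, replicate blocks and marker shares as covariates. Upstream windows were read by locus tag from RefSeq TAIR10.1, where 21120 of 21200 genes matched. Cyclin and CDK names were given a hyphen for the annotation's semicolon.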

Additional observations from a re-analysis of the deposited data

How the results depend on the processing

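Over 107 log2 fold changes of single genes and 2512 alternative values of them, 2366 kept direction and side of the threshold, 81 lost a call, 12 gained one and 53 changed sign. None of these sign changes fell in a comparison where the gene was called, though some fell in genes called in another comparison. The cause was not tested in any case. Shares in parentheses beside counts are those of all genes called in the same fit. DESeq2 called 3 of the cell cycle genes (7.39%) in Az39 against ipdc at 24 h, 3 (10.5%) in Az39 against saline and 1 (2.05%) in ipdc against saline at 7 d, and 9 (23.4%) and 6 (18.9%) between times with saline and Az39. With limma-voom 0 (12.3%) and 1 (14.7%) were called between times with Az39 and ipdc, and SMR1 in Az39 against saline at 24 h was -0.052. Testing all genes with a count left 1 (17.9%) between times with ipdc. With the photosynthesis share as covariate the counts were 1 (3.44%) for ipdc against saline, at a median of -0.71, and 2 (4.14%) for Az39 against ipdc at 24 h, 0 (4.33%) for Az39 against saline at 7 d, and 8 (19.6%) and 0 (6.2%) between times with saline and ipdc, at a median of 0.25 for the latter. The median was 0.031 in Az39 against saline at 24 h and, at 7 d, 0.16 in ipdc against saline and 0.18 in Az39 against ipdc. There CYCD3-1 was at -0.070 in Az39 against saline, CDKA-1 at 0.12 in ipdc against saline and CYCD1-1 and KRP1 at 0.24 and 0.18 in Az39 against ipdc at 24 h, and at 7 d CDKB1-1 was at 0.0084 in ipdc against saline and CYCB2-1 and CYCD3-2 at 0.025 and 0.011 in Az39 against ipdc. With the seed share as covariate 0 were called in Az39 against saline at 7 d (2.47%) and between times with ipdc (2.62%), the medians were 0.28 in Az39 against ipdc at 24 h and -0.19 between times with ipdc, KRP2 and SIM were at 0.24 and 0.15 in ipdc against saline and KRP2 at -0.33 in Az39 against ipdc at 24 h. Fits of only the libraries of a time put CDKB1-1 at -0.00082 in ipdc against saline at 24 h. Fits of only the groups compared called 0 (0.381%) for Az39 against saline at 7 d and 10 (14.4%), 0 (10.9%) and 1 (6.15%) between times with saline, Az39 and ipdc. Without both ipdc libraries of 24 h, 9 (21.3%) and 3 (17.1%) were called between times with saline and Az39. Differences between the 2 replicates correlated between groups at -0.234 to 0.272 over all genes tested. With 2 libraries a group these values cannot settle whether libraries are paired by their replicate marks. With them as a replicate block the counts were 0 (3.73%) for Az39 against saline at 7 d and 4 (16.4%), 0 (14.3%) and 1 (19.5%) between times with saline, Az39 and ipdc, and with a replicate block within each time 0 in all 4 (1.73%, 1.58%, 6.85% and 8.67%). No other count of calls moved by more than 1.5 times under either block.

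Leaving out 1 library at a time, with the lone library of a group assumed to vary like the others, the counts at 24 h ran from 0 to 2 in ipdc against saline, where 0% to 6.86% of all genes were called, and from 0 to 4 in Az39 against ipdc (0% to 6.94%). They ran from 0 to 1 in Az39 against saline at 7 d (0.0365% to 5.89%), from 0 to 9, 0 to 6 and 0 to 3 between times with saline (0.135% to 20.3%), Az39 (2.78% to 16.4%) and ipdc (1.51% to 20.9%), and from 0 to 1 for the change of ipdc minus saline (0% to 4.27%). Medians ran from -0.53 to -0.18 in ipdc against saline at 24 h, 0.073 to 0.57 in Az39 against saline at 7 d, and -0.51 to -0.16 and -0.26 to 0.24 between times with Az39 and ipdc. Uncalled log2 fold changes that crossed 0 were, for Az39 against saline at 24 h, CYCB1-1 (-0.043 to 0.38), CYCB2-2 (-0.20 to 0.15), CYCA3-4 (-0.25 to 0.11), CYCD3-1 (-0.13 to 0.34), CDKB1-2 (-0.16 to 0.37), KRP2 (-0.45 to 0.24), SIM (-0.62 to 0.20) and SMR1 (-0.63 to 0.72). For ipdc against saline they were CYCA3-4 (-0.24 to 0.10), CYCD4-2 (-0.0032 to 0.47), CDKA-1 (-0.26 to 0.077), CDKB1-1 (-0.089 to 0.079), KRP2 (-0.50 to 0.21), KRP4 (-0.025 to 0.76) and SIM (-0.56 to 0.27), and for Az39 against ipdc CYCA3-4 (-0.10 to 0.16), CYCD1-1 (-0.44 to 0.35), KRP1 (-1.47 to 0.45), KRP2 (-0.076 to 0.24) and SIM (-0.21 to 0.086). At 7 d they were CYCB2-3 (-0.17 to 0.47), CYCA3-4 (-0.016 to 0.15) and CDKA-1 (-0.086 to 0.0025) for Az39 against saline, CYCA3-4 (-0.41 to 0.039), CDKA-1 (-0.024 to 0.11) and CDKB1-1 (-0.13 to 0.14) for ipdc against saline, and CYCB1-1 (-0.32 to 0.41), CYCB2-1 (-0.45 to 0.29), CYCA2-4 (-0.67 to 0.050) and CYCD3-2 (-0.21 to 0.14) for Az39 against ipdc. RLE scaling moved the median of all genes by at most -0.021. With 2 libraries a group, genes of under 10 CPM had SEs of up to 0.63 between treatments, which limits what could be called.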
